A study of Homo sapiens with 12 samples.

Results

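The human T-cell receptor gamma locus was followed across the 4 comparisons of a study of Jurkat cells with and without the RNA-binding protein HuR. Rows of the authors' deposited table were taken when their symbol began with TRGV, TRGJ or TRGC. This gave 5 of 2587 rows: the variable (V) genes TRGV3, TRGV5 and TRGV9 and the V pseudogenes TRGV5P and TRGV7. The study holds 12 poly(A) RNA libraries, 3 in each of 4 groups, from Jurkat, an established human T-cell leukaemia line. WT rest and HuRKO rest are wild-type and HuR-knockout cells left untreated, and WT activated and HuRKO activated are the same cells given 20 ng/mL PMA, which activates protein kinase C, and 500 ng/mL ionomycin, which raises intracellular calcium, for 24 h. The labels do not say whether HuRKO is 1 clone, so the knockout and the history of the cells that carry it cannot be told apart here.

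As background, a T-cell receptor is either an alpha-beta or a gamma-delta pair. The gamma chain is built when a V segment and a joining (J) segment are cut and rejoined in a developing T cell, and the joined segment is then spliced to a constant (C) gene. V segments can be transcribed from their own promoters before or without rejoining, and gamma segments are often rejoined in cells that end up with an alpha-beta receptor. TRGV9 encodes the gamma chain of the main gamma-delta population of human blood, which responds to phosphoantigens. TRGV3 and TRGV5 belong to the first V subgroup, as do the pseudogenes TRGV5P and TRGV7, which cannot encode a working chain.

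All 5 IDs matched GENCODE 29, on the hg38 (GRCh38) build that the submitters' processing notes also name, and all lie on the minus strand of chromosome 7. In the order of transcription TRGV3 (ENSG00000211699.2) spans 38358512 to 38359162, TRGV5 (ENSG00000211697.4) 38349355 to 38350022, TRGV5P (ENSG00000228668.1) 38345030 to 38345499, TRGV7 (ENSG00000249978.1) 38335041 to 38335514 and TRGV9 (ENSG00000211695.2) 38317017 to 38318861. Each has 2 exons in the annotation, a first exon with the leader and the V exon. The annotation holds 21 genes with these prefixes, 14 V, 5 J and 2 C genes. The 16 that are not among the 5, including both C genes and every J segment, are not analysed here and are not shown to be unchanged. The table lists a gene only if its false discovery rate (FDR, a p-value adjusted over many genes) was below 0.05 together with a log2 change beyond 2 in either direction in 1 or more comparisons, so every listed row had to differ somewhere. TRGV9 met this in 3 comparisons, TRGV3, TRGV5 and TRGV7 in 2 and TRGV5P in 1.

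**Figure D1:**
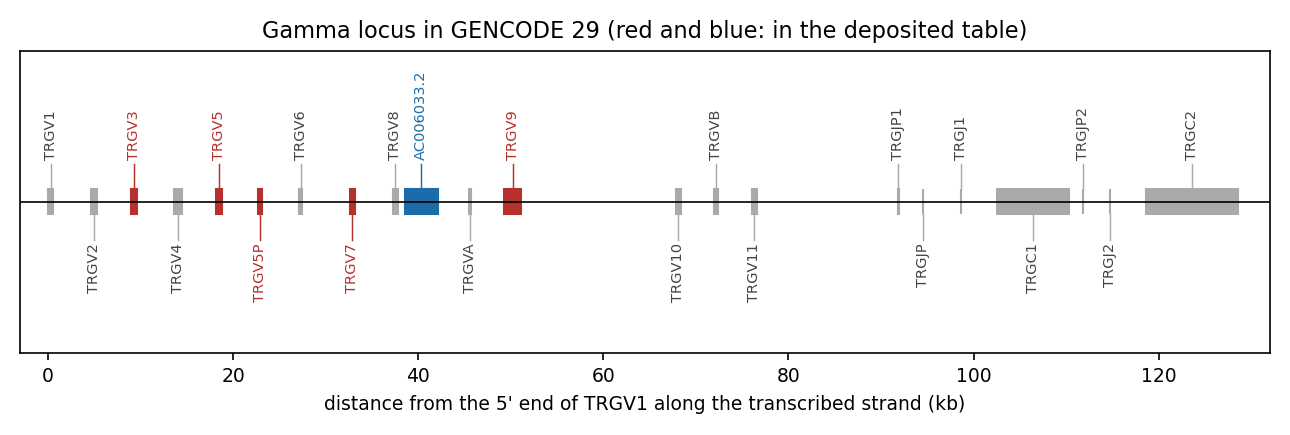
The horizontal axis is the distance in kb from the 5′ end of TRGV1 along the transcribed strand, and each box is 1 gene of GENCODE 29. The 5 listed V genes (red) start between 9.01 and 49.3 kb, AC006033.2 (blue) is a listed long non-coding RNA among them, and grey genes are not analysed here.

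The end of the V exon is shown because it is what the rejoined segment contributes to the third complementarity-determining region, the most variable loop of the receptor, and because it shows how alike the listed genes are. The last 30 bases of each V exon follow, 5′ to 3′, from the GENCODE 29 transcripts. Capitals mark the 6 codons from the conserved cysteine to the end of the segment.
TRGV3, chr7:38358512-38358541, minus strand: ggggtctattacTGTGCCACCTGGGACAGG
TRGV5, chr7:38349355-38349384, minus strand: ggggtctattacTGTGCCACCTGGGACAGG
TRGV5P, chr7:38345030-38345059, minus strand: ggggtctattacTGTGCCACCTGGGGCAGG
TRGV7, chr7:38335041-38335070, minus strand: tggatctattacTGTGCCACCTGGGACAGG
TRGV9, chr7:38317017-38317046, minus strand: gctacctactacTGTGCCTTGTGGGAGGTG
TRGV3 and TRGV5 are the same in this window. TRGV5P differs from TRGV5 by A26G, counted from 1 at the left end of the window with the TRGV5 base first. TRGV7 differs from TRGV5 at 2 positions and TRGV9 at 11.

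Over the whole V exon, TRGV3 and TRGV5 were 95.5% identical in a global alignment, and each was 93.2% identical to TRGV5P. TRGV7 was 86.8% to 88.4% identical to these 3, with a V exon of 310 bases against 311. TRGV9, with a V exon of 320 bases, was 48.2% to 50.3% identical to the other 4. These values bear on how far reads could be assigned. Of all stretches of 50 bases in the annotated exons, 35.9% of those of TRGV3 and 23.7% of those of TRGV5 also occur in another gamma V gene, against 2.95% for TRGV5P and 0 of 304 and 0 of 1686 for TRGV7 and TRGV9. With stretches of 100 bases the shares were 0.457% and 0.442% for TRGV3 and TRGV5 and 0 for the other 3. The sources used here give neither the read length nor the handling of reads with several matches, so the split between TRGV3 and TRGV5 is uncertain. The other gene of a shared stretch can be any annotated gamma V gene, so exchange with V genes that are not listed is possible too.

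**Figure D2:**
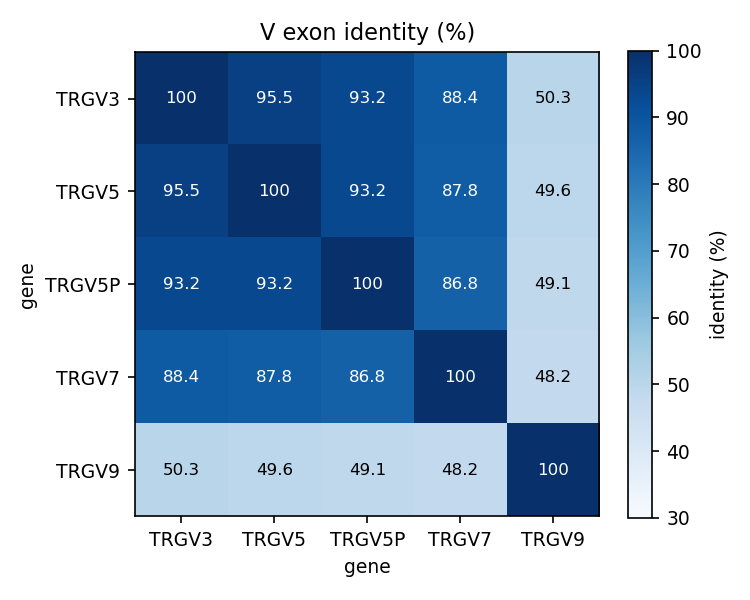
Each cell gives the percent identity of the V exons of 2 genes, on both axes, from a global alignment with gap positions counted as differences. TRGV3, TRGV5, TRGV5P and TRGV7 form a block of 86.8% and above, and TRGV9 stands at 50.3% or less to each of them.

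The antisense gene TRG-AS1 spans chromosome 7, 38341577 to 38378804, on the plus strand. TRGV3, TRGV5 and TRGV5P lie inside that span and TRGV7 and TRGV9 outside it. None of the 5 shares an exon base with an annotated exon of TRG-AS1. The libraries were directional, but the sources used here do not give whether counting used the strand, so reads from unspliced TRG-AS1 RNA cannot be told apart from those of these 3 genes.

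The labels were checked on the targeted gene first. ELAVL1, which encodes HuR, had a level of 4042 in WT rest, 596 in HuRKO rest, 2552 in WT activated and 471 in HuRKO activated. Levels here are normalised counts for a group of 3 libraries, rebuilt from each row's mean and changes in the authors' deposited table. They carry no error of their own, no value per library was analysed here, and the depth of each library is unknown. The deposited FDR is therefore the measure of spread between replicates, and nothing in the labels says that replicates were separate cultures, so that spread may be technical. In bulk RNA, fewer cells with a transcript and less of it per cell cannot be told apart.

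The gamma V rows were all highest in HuRKO activated and lowest in WT rest. TRGV9 had a level of 4.65 in WT rest, 25.3 in HuRKO rest, 8.28 in WT activated and 121 in HuRKO activated. It was low in both WT groups and higher in both HuRKO groups. TRGV3 was at 24.9, 43.1, 44.2 and 187 in the same order of groups, and TRGV5 at 26.5, 47.2, 51.8 and 222. For these neighbours HuRKO rest and WT activated were close to each other, and only HuRKO activated stood far above. TRGV5P was at 24.1, 41.7, 29.3 and 141. It resembled TRGV3 at rest but had little activation in WT cells. TRGV7 was at 21.4, 33.4, 92.1 and 252, and was the only 1 of the 5 whose WT activated level was more than 2 times its HuRKO rest level. No deposited comparison sets HuRKO rest against WT activated, so the order of these middle groups has no test.

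**Figure D3:**
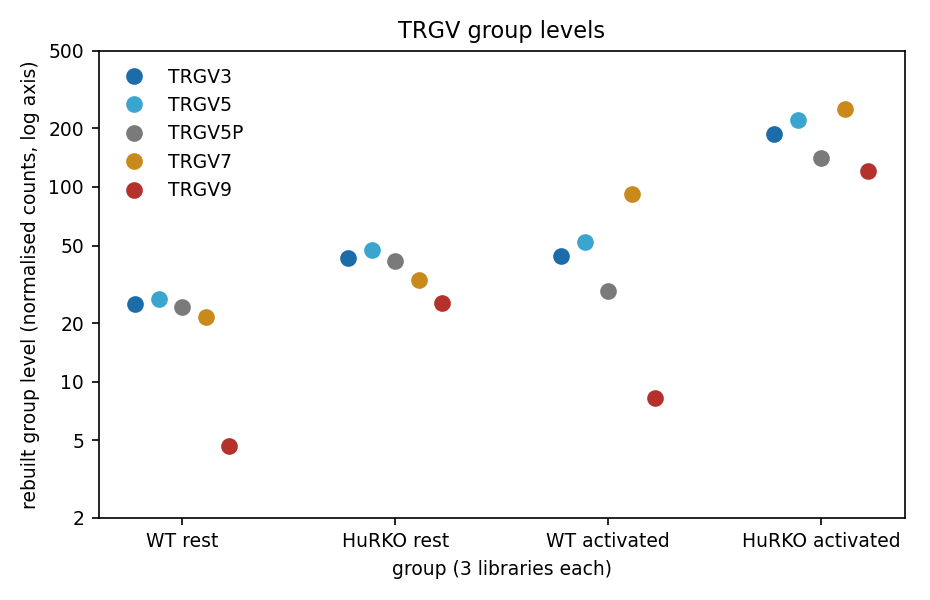
The vertical axis is the rebuilt level in normalised counts on a log axis, the horizontal axis the 4 groups of 3 libraries, and each point is 1 gene, with no error bars because no value per library was analysed here. All 5 genes are highest in HuRKO activated (121 to 252) and lowest in WT rest (4.65 to 26.5). TRGV9 is the lowest of the 5 in every group and lies apart below the others in both WT groups. Levels are not divided by transcript length.

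All 5 rows stayed above the floor of 1 normalised count (3 counts over 3 libraries) in every group, so their folds are not bounds. The HuRKO activated group held 59.8% to 76.1% of the summed level of a gene over the 4 groups. From the lowest to the highest group the levels spanned 26.1-fold for TRGV9, 11.8-fold for TRGV7, 8.36-fold for TRGV5, 7.50-fold for TRGV3 and 5.86-fold for TRGV5P. Reads exchanged among TRGV3, TRGV5, TRGV5P and TRGV7 would not move their summed level, whereas reads exchanged with V genes that are not listed could. This sum was 97.0 in WT rest, 165 in HuRKO rest, 217 in WT activated and 803 in HuRKO activated.

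Genes can be compared with each other only per length, since a longer transcript collects more reads. Levels per kb of annotated exon in HuRKO activated were 715 for TRGV7, 401 for TRGV5, 399.6 for TRGV5P, 349 for TRGV3 and 70.0 for TRGV9. In WT rest they were 60.6, 48.0, 68.2, 46.5 and 2.68 in the same order of genes. TRGV9 was thus lowest per length and TRGV7 highest in HuRKO activated, whereas TRGV5P was highest in WT rest. The annotated TRGV9 transcript includes 1369 bases of untranslated leader. With untranslated bases left out of the length, TRGV9 was at 332 per kb in HuRKO activated and 12.7 in WT rest, and was still the lowest of the 5 in both. TRGV7 was again highest in HuRKO activated, whereas TRGV5, at 74.8, was then highest in WT rest. Reads over untranslated bases were not taken out of the level. This basis therefore raised only TRGV3, TRGV5 and TRGV9, since TRGV5P and TRGV7 have 0 untranslated bases annotated. Which gene was highest in WT rest thus depended on the basis. The order of TRGV3, TRGV5 and TRGV5P is not separated by any deposited test.

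HuRKO was first compared with WT at rest, which asks how the locus stands before stimulation. TRGV9 rose 5.44-fold, with a log2 change of 2.44 (FDR 1.2e-05 in the authors' deposited table). TRGV5 rose 1.78-fold (log2 change 0.83, FDR 0.013 there), TRGV3 1.73-fold (0.79, FDR 0.031) and TRGV5P 1.73-fold (0.79, FDR 0.042). TRGV7 was 1.56-fold higher but did not pass (0.64 on the log2 scale with FDR 0.11, by the authors' deposited table). So 4 of the 5 rows were called higher and 0 lower, where 25.0% of all listed genes were called higher and 15.4% lower. The median log2 change of the 5 was 0.79 against 0.18 over all 2587 listed genes. The calls of TRGV3, TRGV5 and TRGV5P did not pass an FDR of 0.01, which left TRGV9 as the only call at rest.

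In activated cells the deposited changes between the genotypes were larger than at rest in each of the 5, a difference that has no deposited test. In the authors' deposited table TRGV9 rose by a log2 change of 3.87 in HuRKO against WT (14.7-fold, FDR 5.6e-22). TRGV5P rose 4.82-fold (log2 change 2.27, FDR 3.0e-16), TRGV5 4.27-fold (2.10, FDR 1.2e-20) and TRGV3 4.24-fold (2.08, FDR 1.8e-17). TRGV7 rose least, 2.74-fold (1.45, FDR 2.2e-11 in the authors' deposited table). All 5 rows were called higher, where 42.2% of all listed genes were called higher and 35.4% lower in this comparison. Their median log2 change was 2.10 against 0.36 over all listed genes. TRGV5P was listed only through this comparison, so its presence in the table fixes its call here. TRGV3 and TRGV5 were listed through this comparison and activation in HuRKO, which share the HuRKO activated group.

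Activation alone changed the rows unevenly in WT cells. TRGV7 rose 4.31-fold (2.11 on the log2 scale with FDR 1.2e-13, by the authors' deposited table). TRGV5 rose 1.96-fold (0.97, FDR 0.00097) and TRGV3 1.77-fold (0.82, FDR 0.0099). TRGV9 was 1.78-fold higher without passing (0.83, FDR 0.21), as was TRGV5P at 1.21-fold (0.28, FDR 0.49). TRGV9 and TRGV3 had nearly the same fold here with very different FDRs, and TRGV9 had the lower levels, 4.65 and 8.28. The count was 3 of 5 called higher and 0 lower, with 52.0% of all listed genes called higher and 21.8% lower. The median of the 5, 0.83, lay below the 1.42 of all listed genes.

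In HuRKO cells activation raised all 5. TRGV7 rose 7.55-fold (2.92 on the log2 scale with FDR 4.7e-33, by the authors' deposited table), TRGV9 4.80-fold (2.26, FDR 1.9e-12) and TRGV5 4.69-fold (2.23, FDR 8.7e-23). TRGV3 rose 4.34-fold (2.12, FDR 4.5e-18) and TRGV5P 3.39-fold (1.76, FDR 2.6e-11). Among all listed genes, 58.1% were called higher and 18.5% lower, with a median log2 change of 1.45 against 2.23 for the 5 rows. TRGV3, TRGV5, TRGV7 and TRGV9 met the listing rule in this comparison, so selection bears on their calls and on this median. TRGV7 also met it for activation in WT, and TRGV9 in both comparisons of HuRKO with WT. The activation response in HuRKO minus that in WT, on the log2 scale, was 1.48 for TRGV5P, 1.43 for TRGV9, 1.30 for TRGV3, 1.26 for TRGV5 and 0.81 for TRGV7. This difference has no deposited test and was not tested here. The 4 comparisons share their groups, so the 4 changes of a gene are not independent of each other.

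**Figure D4:**
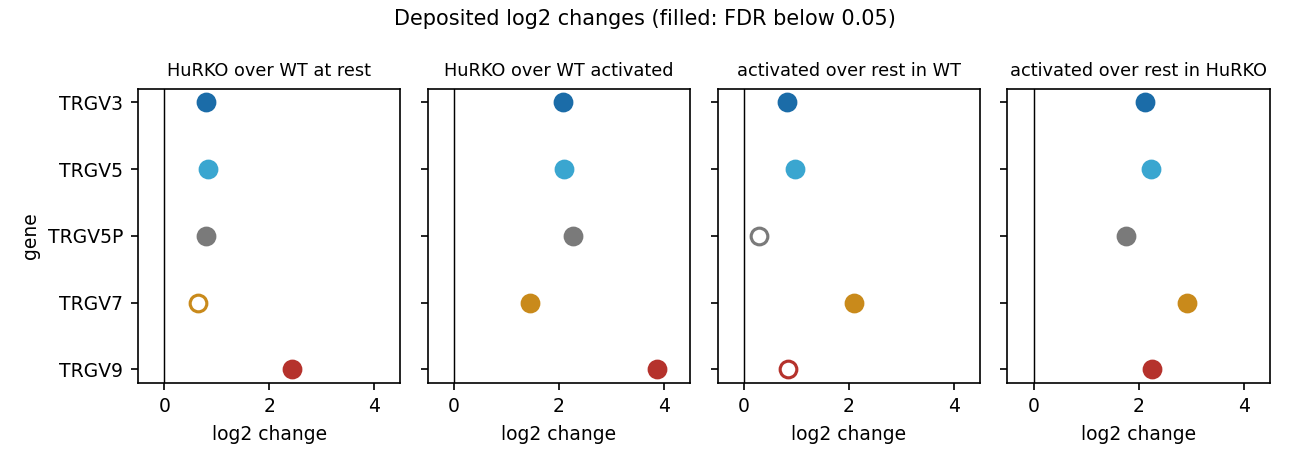
Each panel is 1 comparison of the authors' deposited table, with the log2 change on the horizontal axis and the 5 genes on the vertical axis, and filled points have an FDR below 0.05. All 20 points lie above 0, and the 3 open points are TRGV7 for HuRKO over WT at rest and TRGV5P and TRGV9 for activation in WT.

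All 20 changes of the 5 rows were above 0. A sign above 0 in all 4 comparisons was found in 559 of the 2587 listed genes, or 21.6%. Called higher in HuRKO at rest, in HuRKO activated and on activation in HuRKO were 4 of the 5, and 235 or 9.08% of all listed genes. This pattern leaves out activation in WT, where TRGV9 and TRGV5P were not called. Each of the 4 was also listed through comparisons of this pattern, so selection bears on their count. TRGV3 and TRGV5 had the most similar changes of the 5, with a largest difference of 0.14 over the 4 log2 changes, and each was the closest of all listed genes to the other. That pair is also the pair with the highest sequence identity, for which the separate counts are uncertain. TRGV9 and TRGV7 were furthest apart, with a largest difference of 2.42.

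For TRGV7, which had the highest mean level of the 5, the listed protein-coding genes with the most similar changes were PCBP3, DPF3, OTOF, COLGALT2 and ALDOC. The measure was the largest absolute difference over the 4 log2 changes, which rest on 4 groups. It was 0.20 for PCBP3, which encodes a poly(C)-binding protein, 0.23 for DPF3, a chromatin reader, and 0.44, 0.45 and 0.51 for OTOF, COLGALT2 and ALDOC. DPF3 had levels of 284 in WT rest, 453 in HuRKO rest, 1440 in WT activated and 3433 in HuRKO activated. The same 5 genes were closest by Euclidean distance.

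1 further listed gene lies inside the locus. AC006033.2 (ENSG00000272908.1, chromosome 7, 38326070 to 38329643, minus strand) is annotated as a long intergenic non-coding RNA between TRGV8 and TRGVA, on the strand of the V genes. Its level was 7.17 in WT rest, 23.7 in HuRKO rest, 13.6 in WT activated and 77.7 in HuRKO activated, the same order of groups as TRGV9 and TRGV5P. In the authors' deposited table it rose 3.30-fold in HuRKO at rest (log2 change 1.72, FDR 0.0025), 5.71-fold in HuRKO activated (2.51, FDR 1.5e-09) and 3.28-fold on activation in HuRKO (1.71, FDR 1.0e-05). Activation in WT cells did not pass (1.90-fold, log2 change 0.92, FDR 0.12 there).

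The other receptor loci give the frame for these values. The alpha locus, whose segments rejoin in the same way, has 10 listed rows, and TRAC, its constant gene, was at 3510.1 in WT rest, 552 in HuRKO rest, 23285 in WT activated and 17916 in HuRKO activated. At rest 7 of these 10 were called lower and 0 higher in HuRKO, against 15.4% and 25.0% of all listed genes, with a median log2 change of -2.58, whereas 4 of 5 gamma rows were called higher. In HuRKO activated 3 alpha rows were lower and 0 higher (median -0.27), against 35.4% and 42.2% of all listed genes. Activation raised all 10 in both genotypes, where 52.0% of all listed genes rose in WT and 58.1% in HuRKO. The difference between the loci was not tested. The beta locus has 2 listed rows. TRBV28 was at 42.6, 24.7, 16.0 and 95.6 in WT rest, HuRKO rest, WT activated and HuRKO activated, and rose in HuRKO activated (2.58 on the log2 scale with FDR 1.9e-13, by the authors' deposited table). TRBV10-3, near the floor at 1.64 in WT rest, rose there as well (2.54, FDR 0.012). Neither was called at rest.

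**Figure D5:**
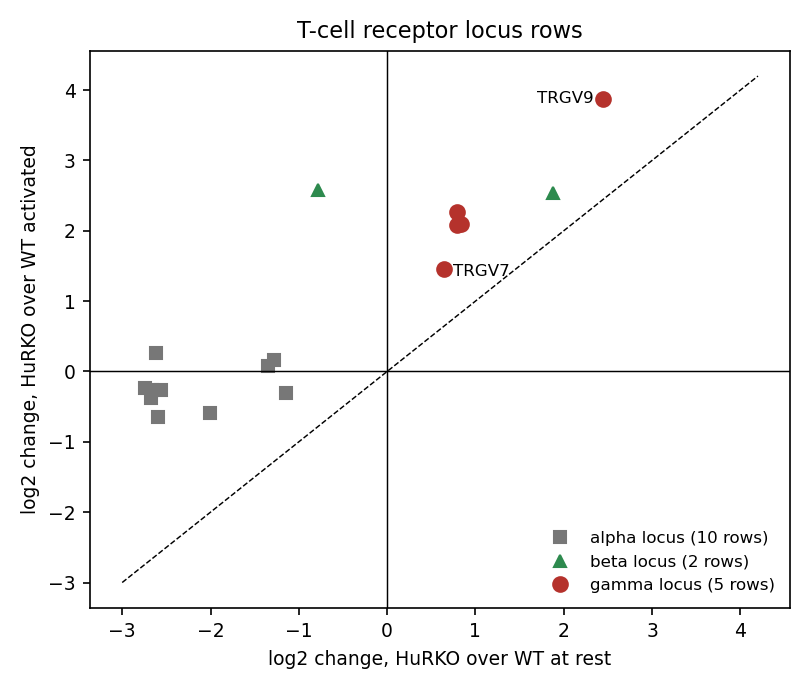
Each point is 1 row of a T-cell receptor locus, plotted by its deposited log2 changes in HuRKO relative to WT, in resting cells (horizontal axis) and in activated cells (vertical axis), with a dashed line where both are equal. The 5 gamma rows lie at the upper right above the line, and the 10 alpha rows lie left of 0 and between -0.65 and 0.27 on the vertical axis.

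Genes that act on the locus were counted from lists chosen with earlier results known. Of 15 genes of V(D)J recombination, the cutting and joining of segments, 3 are listed. RAG1 and RAG2, the recombinase that cuts them, were at 46.9 and 5.37 in WT activated against 560.1 and 381 in WT rest. In HuRKO they were at 27.9 and 7.52 in activated against 1425 and 702 in resting cells. DNTT, which adds bases at the joints, was at 1142 in WT rest, 282 in HuRKO rest, 4.67 in WT activated and 12.03 in HuRKO activated. Activation lowered all 3 in both genotypes, the opposite sign to the gamma rows, where 21.8% of all listed genes fell in WT and 18.5% in HuRKO. PTCRA, the partner of the beta chain before the alpha chain is made, was the only 1 listed of 6 CD3 chains and receptor partners. It was higher in HuRKO at rest at 317 against 114 (1.47 on the log2 scale with FDR 4.5e-09, by the authors' deposited table). In activated cells PTCRA was not called (-0.21, FDR 0.71 there). Activation lowered it in WT (-3.55, FDR 3.6e-23) and in HuRKO (-5.23, FDR 1.0e-49), the opposite sign to the gamma rows.

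Of 22 genes chosen as regulators of the gamma locus or of early T-cell fate, 13 are listed. At rest 3 were higher and 3 lower in HuRKO, near the 25.0% and 15.4% of all listed genes. In activated cells 9 were higher and 1 lower, against 42.2% and 35.4% of all listed genes. The median log2 changes were 0.02 at rest and 1.34 in activated cells. The 4 with the highest mean levels were ETS1, TCF7, MYB and TCF3, transcription factors of lymphoid progenitors and T cells. MYB was at 10129 in HuRKO activated against 1963 in WT activated, TCF7 at 2268 against 412, TCF3 at 2389 against 944 and ETS1 at 15242 against 2912. At rest ETS1 was lower in HuRKO (5793 against 8378, with FDR 1.3e-05 by the authors' deposited table) and TCF3 higher (10020.2 against 7830.3, FDR 0.018), and MYB and TCF7 were not called (FDR 0.29 and 0.084). On activation TCF7 and TCF3 fell in both genotypes, against the sign of the gamma rows, and ETS1 and MYB fell in WT and rose in HuRKO. Activation raised 4 and lowered 7 of the 13 in WT cells, against 52.0% and 21.8% of all listed genes, and raised 8 and lowered 5 in HuRKO, against 58.1% and 18.5%. IL7R, the receptor for interleukin 7, whose signalling is known to open the gamma locus to recombination, was lower in HuRKO at rest at 122 against 481 (-1.97 on the log2 scale with FDR 7.8e-23, by the authors' deposited table). It was not called in activated cells, at 36.6 against 32.9.

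Genes seen in gamma-delta T cells were counted beside the V rows, without showing which cells carry them. Of 16, 13 are listed, and 4 were higher and 1 lower in HuRKO at rest, near the 25.0% and 15.4% of all listed genes. In activated cells 8 were higher and 2 lower, against 42.2% and 35.4%. SOX13, a transcription factor of the gamma-delta lineage, had levels of 7.68 in WT rest, 27.7 in HuRKO rest, 62.9 in WT activated and 496 in HuRKO activated. It rose in HuRKO at rest (1.85 on the log2 scale with FDR 7.4e-05, by the authors' deposited table) and in activated cells (2.98, FDR 4.2e-32). SOX4 was at 24576 against 3184 in activated cells, GZMA at 6685 against 885 and ETV5 at 1726 against 897. EGR3 went the other way, at 117 against 1472. Of the 8 defining gamma-delta markers, TRGV9 and SOX13 are listed and the delta chain genes, TRGC1 and TRGC2 are not analysed here, so a gamma-delta label could not be checked.

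Markers of other cell types moved with the gamma rows in part. Of 8 natural killer markers 4 are listed, with a summed level of 13.2, 38.2, 156 and 281 in WT rest, HuRKO rest, WT activated and HuRKO activated. In HuRKO activated 2 of them were higher, KLRF1 was lower (10.6 against 27.2, with FDR 0.043 by the authors' deposited table) and KLRD1, the largest contributor there, was not called (165 against 116, FDR 0.18). These counts were near the shares of all listed genes in that comparison, 42.2% higher and 35.4% lower. The 2 listed of 5 erythroid markers, the near-identical HBA1 and HBA2, summed to 2.95, 48.1, 4.46 and 54.3, and 2 of 5 monocyte markers to 1.10, 10.0, 74.3 and 106. In WT rest both monocyte markers, ITGAM and CSF1R, and the natural killer markers GNLY and KLRF1 were below the floor. CSF1R and KLRF1 were below it in HuRKO rest as well, so rises from such levels are not measured folds. Of 5 B-cell markers only CD79B is listed, at 1.41, 10.1, 19.8 and 17.2. The 3 listed of 10 alpha-beta markers (TRAC, CD4 and CD8B) summed to 3599.7, 710.2, 23292 and 17969, nearly all of it TRAC. CD4 was at 42.0, 99.6, 6.92 and 45.9 and was higher in HuRKO in both states. CD8B was at 47.6, 58.9, a level below the floor and 7.25, and was higher in HuRKO activated. Both fell on activation in both genotypes. Their part in the gamma result was not tested.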

How the data were processed

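Poly(A) RNA from 12 Jurkat libraries (4 groups of 3, grouped by title) was sequenced by the authors. Per the submitters' processing notes, TopHat, Bowtie2 and hg38 were used, with no version recorded. The sources used here do not give the counting tool, strand setting, scaling or test. The 1 file is the authors' deposited table of 2587 genes. Its baseMean is a deposited signal, taken as the mean normalised count over all libraries. Its changes are taken as deposited log2 values. The header names no base, and base 2 is inferred: on that base up to 30.6% of the WT rest levels under the floor fall within 10% above 1 value, against 5.34% on base e and 2.03% on base 10. The FDR is a deposited p-value after adjustment by the authors.

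Group levels were rebuilt from the mean and 3 changes, assuming equal groups (pandas 2.3.3). The 4 changes close to within 1e-09 in all 2587 rows. The step recovered levels simulated without noise under the same assumptions. This checks the arithmetic and does not test those assumptions. Calls are an FDR below 0.05. V exons were aligned with Biopython 1.88, and coordinates and sequences are from GENCODE 29. All members are described. From each list up to 4 genes with the highest mean were named, beside IL7R and SOX13, which were picked with their values known. The members, lists and tests were chosen with earlier results of these data known. Alternatives were a stricter FDR, a minimum change, pseudogenes left out, overlapping genes added, base e, a floor of 6 counts and Euclidean distance. There were 0 unmapped columns of values per sample. A result on a gene near the locus is not reported here.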

Additional observations from a re-analysis of the deposited data

How the results depend on the processing

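Of 17 calls over the 5 gamma rows and 4 comparisons, 14 passed an FDR of 0.01 and 13 passed 0.001, 12 had a log2 change of at least 1 and 10 of at least 2. For HuRKO against WT at rest the count of called rows fell from 4 to 1 under each of these 4 settings, and the 1 was TRGV9. For activation in WT it fell from 3 to 1 with a log2 change of at least 1 or 2, and the 1 was TRGV7. To be listed, a row needed at least 1 call with a log2 change beyond 2, so selection bears on these counts. With pseudogenes left out, 3 of the 5 calls in HuRKO activated and 3 of the 5 on activation in HuRKO were left, because fewer rows were counted. TARP and TRG-AS1 added no row, since neither is listed. If the deposited changes were on base e, the span from lowest to highest group would be 111-fold for TRGV9, 35.2-fold for TRGV7, 21.4-fold for TRGV5, 18.3-fold for TRGV3 and 12.8-fold for TRGV5P, while signs and FDRs would stand. A floor of 6 counts over 3 libraries moved none of these spans. No paired analysis was possible because only the authors' comparisons were analysed, with no value per library. For the same reason no replicate could be left out. The depth per library is unknown. The lowest level of the 5 rows was 4.65 normalised counts, for TRGV9 in WT rest.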
